A study of Mus musculus with 9 samples.

Results

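The surface markers by which mouse haematopoietic stem cells and multipotent progenitors are sorted were followed in KSL cells, the bone marrow fraction positive for c-Kit and Sca-1 and negative for lineage antigens and IL7Ra. The set was given by name: Kit, Ly6a, Cd34, Flt3, Slamf1, Procr, Thy1, Tek, Robo4 and Cd48. Array annotation named 12 probe sets for 9 of these 10 genes, out of 20380 probe sets with 1 gene symbol and 12393 genes in all. None of the probe sets with 1 gene symbol carried the symbol Ly6a, so Sca-1, a gate antigen, was not analysed here. Kit had 2 probe sets, Slamf1 had 3 and each of the other 7 genes had 1.

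RNA was measured on 9 Affymetrix arrays in 3 groups of 3 biological replicates, all on a C57BL/6 background. RUNX1(41-214) mice had received cells transduced with a retroviral vector that expresses the RUNX1 fragment of that name, and were sampled 4 months after transduction and transplantation. Runx1KO mice were Runx1floxed/floxedMxCre+/- and were sampled 3 months after poly IC, which switches on the interferon-inducible Mx-Cre. Control mice carried the same floxed alleles without Cre (Runx1floxed/floxedMxCre-/-) and were also sampled 3 months after poly IC. For the RUNX1(41-214) mice neither poly IC nor a floxed allele is listed, and no transplanted empty-vector group was among the 9 arrays, so that effects of the fragment, transplantation, transduction and poly IC cannot be told apart in it. Mx-Cre acts in many cell types besides KSL cells. Whether a replicate was 1 mouse or a pool is not stated in the labels, and the p-values measure the spread between these replicates.

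As background, KSL cells are a mixture. Long-term stem cells are classically found among the cells with SLAMF1 (CD150), EPCR (the product of Procr) and TIE2 (the product of Tek) and without CD34, FLT3 and CD48, while gain of CD34, FLT3 and CD48 accompanies the step to multipotent and lymphoid-primed progenitors. KIT and FLT3 are related receptor tyrosine kinases for stem cell factor and FLT3 ligand, TIE2 is the kinase receptor for angiopoietins, ROBO4 is a Roundabout receptor, SLAMF1 and CD48 are immunoglobulin-like receptors of the SLAM family, and THY1 and CD48 are held in the membrane by a lipid (GPI) anchor. Bulk RNA cannot tell a change in the share of such cells from a change in RNA per cell.

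Values below are log2(signal + 16) of the deposited probe set signals after quantile normalization, given for the brightest probe set of a gene, with SD over n = 3 arrays. Fold changes are limma estimates with their SE, and adjusted p is Benjamini-Hochberg over all 12393 genes, with a threshold of 0.05. Median signals per array were 125 to 147. Runx1, the floxed gene, was at 10.82, 10.95 and 11.06 on the RUNX1(41-214) arrays, 11.20, 11.73 and 11.40 on the Runx1KO arrays and 10.73, 9.88 and 10.58 on the control arrays. It was thus not lower in Runx1KO (log2 fold change 1.05 ± 0.21, adjusted p = 0.0740), and since the position of its probes relative to the deleted part is not known here, this signal does not test the deletion. The log2 ratio of 3′ to 5′ Gapdh control signals, a sign of RNA integrity, was 2.13 in Runx1KO replicate 3 and 1.85 in control replicate 2, and 0.98 to 1.29 on the other 7 arrays. The same ratio for beta-actin was 1.98 in Runx1KO replicate 3, but 0.99 in control replicate 2 and 0.44 to 0.88 on the other 7 arrays. By beta-actin control replicate 2 was thus close to the others, and a high 3′ to 5′ ratio below refers to Gapdh.

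The promoters of the 3 markers that differed among the groups in the F test, Cd48, Tek and Procr, are shown first, because the comparisons turn on them, with the letters that RUNX proteins and their frequent partners bind. The sequences are those of RefSeq (GRCm38.p6), 250 bases before and 50 after a transcription start, read 5′ to 3′ on the gene's strand, at chr1:171681742-171682041 for Cd48, chr4:94739039-94739338 for Tek and chr2:155750967-155751266 for Procr, all on the plus strand. Capitals mark matches on either strand. The motifs searched were the RUNX core, spelled TGTGGT, and its variant, spelled TGCGGT, then the ETS motif with the spelling GGAAGT and the GATA motif with the spelling AGATAA. No match in the 3 sequences overlapped another.
Cd48: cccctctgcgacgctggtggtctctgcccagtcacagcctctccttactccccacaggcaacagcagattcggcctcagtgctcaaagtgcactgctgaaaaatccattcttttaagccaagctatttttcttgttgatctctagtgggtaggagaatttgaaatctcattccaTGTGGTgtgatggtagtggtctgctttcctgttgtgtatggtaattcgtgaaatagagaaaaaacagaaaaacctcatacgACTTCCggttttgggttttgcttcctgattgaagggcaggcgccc
Tek: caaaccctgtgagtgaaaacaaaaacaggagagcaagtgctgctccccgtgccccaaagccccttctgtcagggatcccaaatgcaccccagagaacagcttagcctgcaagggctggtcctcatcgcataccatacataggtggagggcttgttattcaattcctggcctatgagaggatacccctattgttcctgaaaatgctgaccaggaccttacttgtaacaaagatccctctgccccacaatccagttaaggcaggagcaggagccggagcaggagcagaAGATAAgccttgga
Procr: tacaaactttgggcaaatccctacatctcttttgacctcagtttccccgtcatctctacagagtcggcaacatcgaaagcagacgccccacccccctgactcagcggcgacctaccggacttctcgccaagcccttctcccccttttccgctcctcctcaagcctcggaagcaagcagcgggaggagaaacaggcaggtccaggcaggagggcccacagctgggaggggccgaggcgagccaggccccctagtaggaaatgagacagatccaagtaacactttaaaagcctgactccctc

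The table of promoters held 9 entries for 8 of the 10 genes. Within these windows a RUNX core was found in Cd48, as TGTGGT on the plus strand at positions -76 to -71 from the start, and in Flt3, as TGCGGT on the minus strand at positions -61 to -56. TGTGGT was present in 16.8% and TGCGGT in 6.45% of 32851 mouse promoters of the same length, and at least 1 of these spellings in 22.4%. Whether the markers differ from such shares was not tested. An ETS match was found in Cd48 and in Flt3 (23.8% of all promoters had one), and a GATA match in Tek (11.2% of all promoters). None of these letters was in the windows of Kit, Cd34, Slamf1, Procr and Robo4. Cd48 and Slamf1 are also neighbours on chromosome 1, with 1 protein-coding gene between them in the RefSeq gene table.

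The first comparison asked which markers differ in cells that express the fragment. Tek, Cd48 and Kit were higher in RUNX1(41-214) cells, Tek 3.02-fold, Cd48 2.57-fold and Kit 1.49-fold. Procr and Thy1 were lower, Procr 1.83-fold and Thy1 2.10-fold. Flt3, Slamf1, Cd34 and Robo4 did not pass the test. In all, 5 of 9 markers passed, against 4.28% of all genes, with 3 of 9 higher (1.73% of all genes) and 2 of 9 lower (2.56%). Without dim genes 4 of 8 markers passed, against 361 of 6519 genes. The markers were chosen with earlier results of these data known. Such counts, here and below, therefore describe the markers and do not test them as a set. Unadjusted, 7 of 9 had a p under 0.05, against 15.5% of all genes.

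The second comparison asked which markers differ after deletion of Runx1. Tek and Cd48 were the 2 of 9 markers that rose, Tek 2.31-fold and Cd48 2.02-fold, against 0.347% of all genes called in either direction and 0.234% called higher, and 0 of 9 fell. Unadjusted, 4 of 9 had a p under 0.05 (Tek, Cd48, Kit and Slamf1), against 7.22% of all genes. Both comparisons share the 3 control arrays, so the rise of Tek and Cd48 in both is not independent. The call for Tek was lost when any of the 9 arrays was left out (adjusted p = 0.0612 to 0.190) and that for Cd48 in 6 of 9 omissions (adjusted p up to 0.0938, without control replicate 3), while their log2 fold changes stayed at 1.02 to 1.35 and 0.84 to 1.19. Without the 2 arrays of high 3′ to 5′ ratio, 0 of 9 markers passed by limma in Runx1KO, with 3 at an unadjusted p under 0.05, and Tek was at 0.87 and Cd48 at 0.98.

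RUNX1(41-214) cells were also set against Runx1KO cells, where Procr alone of the 9 markers differed past the threshold, being 1.89-fold lower in RUNX1(41-214), against 1.36% of all genes called in either direction and 1.06% called lower. The moderated F test over the 3 groups called Procr, Tek and Cd48, 3 of 9 against 3.4% of all genes. Without the 2 arrays of high 3′ to 5′ ratio, the members called were Procr, Tek and Cd48 (3 of 9) in RUNX1(41-214) against control, and Procr (1 of 9) in RUNX1(41-214) against Runx1KO. Arrays did not overlap for 6 of 9 markers in RUNX1(41-214) against control (20.3% of all genes), for 3 of 9 in Runx1KO against control (10.5%) and for 2 of 9 in RUNX1(41-214) against Runx1KO (18.8%).

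**Figure D1:**
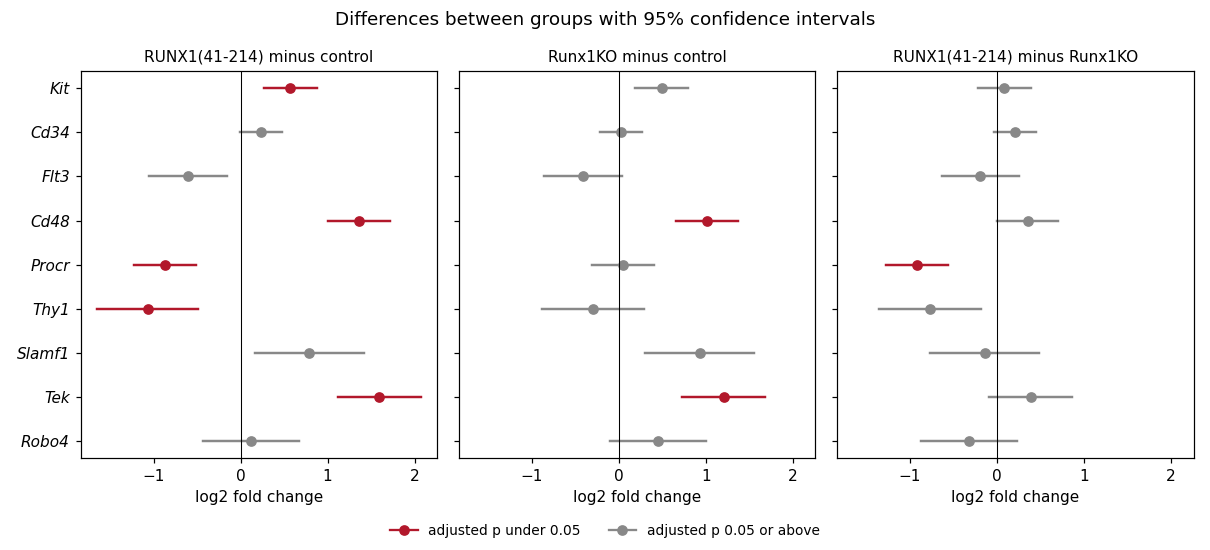
Log2 fold change (horizontal axis) of each of the 9 markers (rows) in RUNX1(41-214) minus control, Runx1KO minus control and RUNX1(41-214) minus Runx1KO, with 95% confidence intervals that are not adjusted over genes. Points in red have an adjusted p under 0.05: Kit, Cd48, Procr, Thy1 and Tek in the first panel, Cd48 and Tek in the second and Procr in the third.

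Among the markers of multipotent progenitors, Cd48, whose product binds the receptors CD2 and CD244, had the clearest separation from control. It was at 12.02, 11.89 and 11.74 on the RUNX1(41-214) arrays, 11.89, 11.18 and 11.54 on the Runx1KO arrays and 10.59, 10.47 and 10.50 on the control arrays. All 6 arrays of the altered groups lay above the 3 control arrays, and the RUNX1(41-214) and Runx1KO arrays overlapped. The log2 fold change was 1.36 ± 0.16 in RUNX1(41-214) against control (adjusted p = 0.000580) and 1.01 ± 0.16 in Runx1KO against control (adjusted p = 0.0252). Between RUNX1(41-214) and Runx1KO the difference was 0.35 ± 0.16, with a 95% interval of -0.0025 to 0.70 (adjusted p = 0.474). In RUNX1(41-214) against control the call of Cd48 was kept in all 22 alternatives run (adjusted p up to 0.00503).

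Flt3, the other progenitor receptor whose gain marks lymphoid-primed cells, pointed the other way from Cd48. It was at 10.45, 10.25 and 10.04 on the RUNX1(41-214) arrays, 10.65, 10.69 and 9.98 on the Runx1KO arrays and 11.01, 10.92 and 10.61 on the control arrays. The RUNX1(41-214) arrays were all below the control arrays, and Runx1KO replicate 3, one of the arrays of high 3′ to 5′ ratio, was the lowest of the 9. The log2 fold changes of -0.60 ± 0.20 in RUNX1(41-214) (adjusted p = 0.156) and -0.41 ± 0.20 in Runx1KO (adjusted p = 0.741) did not pass. Their 95% intervals were -1.05 to -0.15 and -0.86 to 0.04.

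Cd34, a sialomucin absent from the most primitive adult mouse stem cells, varied least. It was at 12.04, 11.94 and 12.06 on the RUNX1(41-214) arrays, 11.93, 11.73 and 11.77 on the Runx1KO arrays and 12.00, 11.68 and 11.68 on the control arrays. The log2 fold changes were 0.23 ± 0.11 in RUNX1(41-214) (adjusted p = 0.348) and 0.025 ± 0.11 in Runx1KO (adjusted p = 0.992), and neither passed. The RUNX1(41-214) arrays lay just above all Runx1KO arrays, a difference of 0.21 ± 0.11 that did not pass either (adjusted p = 0.577).

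**Figure D2:**
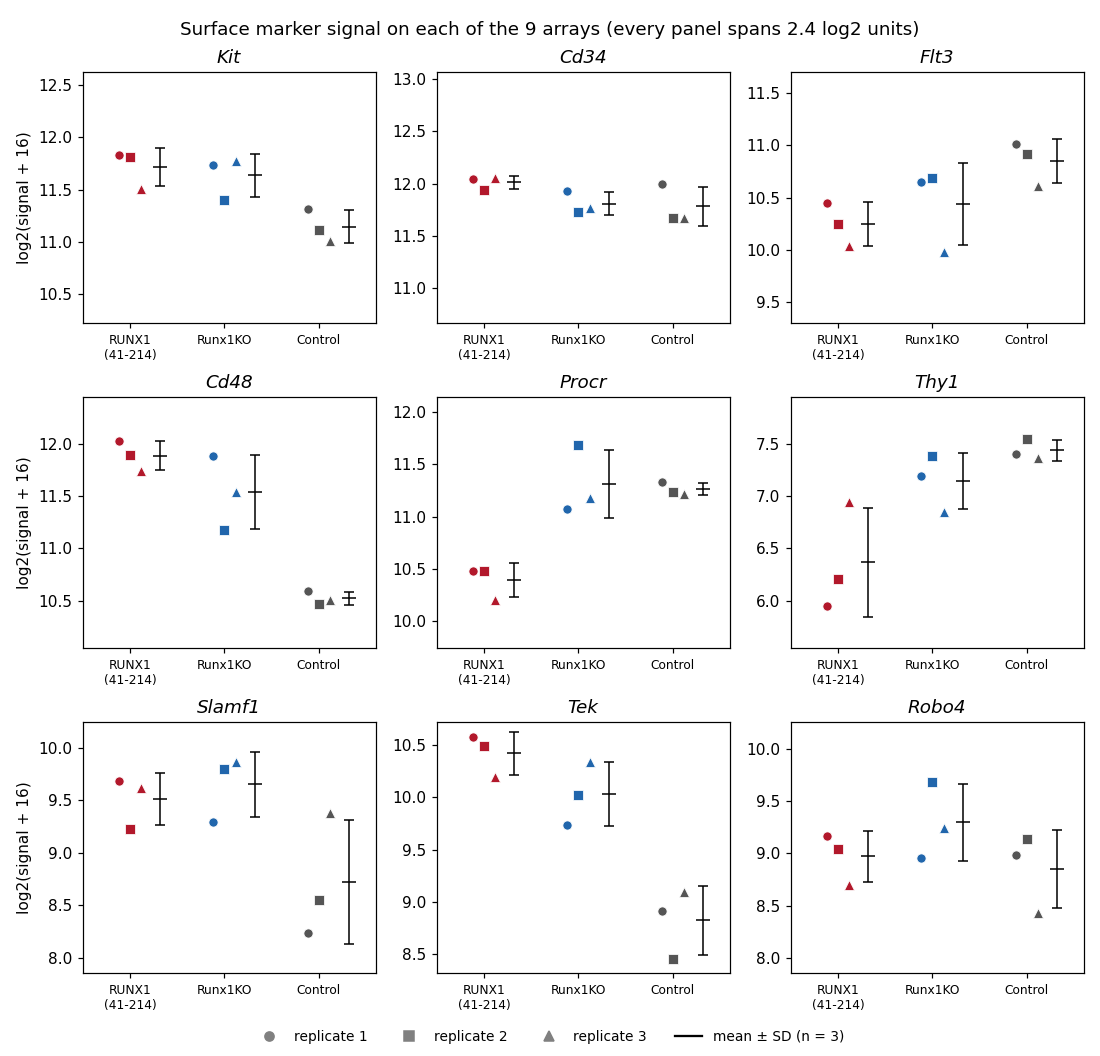
Signal of each marker as log2(signal + 16) after quantile normalization (vertical axis, 2.4 log2 units in every panel) on the 9 arrays, by group, with symbols for replicates and the mean ± SD (n = 3) beside them. The control arrays of Cd48 and Tek lie below all 6 other arrays, and the RUNX1(41-214) arrays of Procr lie below all 6 others.

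Of the markers of long-term stem cells, Tek rose and Procr fell in RUNX1(41-214) cells. Tek, the angiopoietin receptor, was at 10.58, 10.49 and 10.19 on the RUNX1(41-214) arrays, 9.73, 10.02 and 10.34 on the Runx1KO arrays and 8.92, 8.46 and 9.09 on the control arrays. All 6 arrays of the altered groups exceeded every control array. The log2 fold change was 1.59 ± 0.22 in RUNX1(41-214) against control (adjusted p = 0.00146), a call kept in all 22 alternatives, and 1.21 ± 0.22 in Runx1KO against control (adjusted p = 0.0454). The difference between RUNX1(41-214) and Runx1KO was 0.39 ± 0.22 (95% interval -0.09 to 0.86, adjusted p = 0.598).

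Tek is also an endothelial gene, as are Procr and Robo4. In a list of stromal and endothelial genes limma called 0 of 13 against control in RUNX1(41-214) and in Runx1KO (1 and 2 at an unadjusted p under 0.05), and array means over the list were 6.61 to 6.82 in RUNX1(41-214), 6.79 to 6.92 in Runx1KO and 6.68 to 6.80 in control cells. Of that list Cdh5, the endothelial cadherin, and Tie1 were picked after their values were seen. Cdh5 was at a mean of 5.35 in RUNX1(41-214), 5.19 in Runx1KO and 5.40 in control cells. Tie1, the co-receptor of TIE2, was at a mean of 8.34 in RUNX1(41-214), 9.48 in Runx1KO and 8.70 in control cells, and its log2 fold changes of -0.36 ± 0.29 and 0.78 ± 0.29 against control did not pass (adjusted p = 0.642 and 0.503).

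Procr encodes the endothelial protein C receptor, which binds activated protein C on the stem cell surface. It was at 10.48, 10.48 and 10.20 on the RUNX1(41-214) arrays, 11.07, 11.68 and 11.18 on the Runx1KO arrays and 11.33, 11.23 and 11.22 on the control arrays. The RUNX1(41-214) arrays were below all others, while the Runx1KO and control arrays overlapped. The log2 fold change was -0.87 ± 0.16 in RUNX1(41-214) against control (adjusted p = 0.00991) and -0.92 ± 0.16 against Runx1KO (adjusted p = 0.0168). In Runx1KO against control it was 0.05 ± 0.16, with a 95% interval of -0.31 to 0.40 (adjusted p = 0.988). The call against control was kept in all 9 omissions of an array (adjusted p up to 0.0448). Of the 22 alternatives it was lost in 1, the minimum fold of 1.2 (adjusted p = 0.0602). The call against Runx1KO was lost without RUNX1(41-214) replicate 1, 2 or 3 (adjusted p = 0.0524, 0.0590 and 0.0702). It was also lost with the 3′ to 5′ Gapdh ratio as a covariate (adjusted p = 0.0525) and with the minimum fold (adjusted p = 0.0879). The 1 probe set of Procr carries the suffix that Affymetrix gives to sets that may match more than 1 gene.

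Thy1, a glycoprotein that is dim on mouse stem cells and bright on T cells, was a dim signal here, with every group mean below 7.95, the median over genes. It was at 5.95, 6.21 and 6.94 on the RUNX1(41-214) arrays, 7.20, 7.38 and 6.85 on the Runx1KO arrays and 7.40, 7.55 and 7.36 on the control arrays. RUNX1(41-214) replicate 3 stood well above its companions and reached into the Runx1KO range, yet all 3 RUNX1(41-214) arrays were below control. The log2 fold change of -1.07 ± 0.27 in RUNX1(41-214) against control only just passed (adjusted p = 0.0465). It did not pass in 7 of 9 omissions of an array (adjusted p = 0.0585 to 0.214, the highest without RUNX1(41-214) replicate 1), and passed without RUNX1(41-214) replicate 3 and without Runx1KO replicate 3. In Runx1KO the change was -0.29 ± 0.27 (adjusted p = 0.900), and RUNX1(41-214) against Runx1KO gave -0.77 ± 0.27 (adjusted p = 0.273).

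Slamf1, the CD150 receptor that defines stem cells in the SLAM code, was variable in control cells. On its brightest probe set it was at 9.69, 9.23 and 9.62 in RUNX1(41-214), 9.30, 9.80 and 9.87 in Runx1KO and 8.23, 8.55 and 9.38 in control cells. Control replicate 3 lay within the range of the other groups, and the other 2 control arrays lay below all 6. The log2 fold changes of 0.79 ± 0.29 in RUNX1(41-214) (adjusted p = 0.189) and 0.93 ± 0.29 in Runx1KO (adjusted p = 0.310) did not pass. Without control replicate 3 the value in RUNX1(41-214) was 1.12 and passed (adjusted p = 0.0384), and that in Runx1KO was 1.26 and did not pass (adjusted p = 0.1004). Its dimmer probe sets were at 1.09 ± 0.33 and 0.49 ± 0.33 in RUNX1(41-214) and at 0.92 ± 0.33 and 0.95 ± 0.33 in Runx1KO against control, so all 3 were positive in both comparisons. With every probe set tested, 0 of the 3 passed in either by limma (2 of 3 in RUNX1(41-214) and 3 of 3 in Runx1KO had an unadjusted p under 0.05), against 3.05% of probe sets called in RUNX1(41-214) and 0.137% in Runx1KO. On those 2 dimmer sets control replicate 3 was not high, at 5.92 and 5.78, and control replicate 2 was the highest control array.

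Robo4, a Roundabout receptor of stem cells and endothelium, did not separate the groups. It was at 9.17, 9.05 and 8.70 on the RUNX1(41-214) arrays, 8.96, 9.68 and 9.24 on the Runx1KO arrays and 8.98, 9.14 and 8.43 on the control arrays, and the groups overlapped in every pair. The log2 fold changes were 0.12 ± 0.25 (adjusted p = 0.883) in RUNX1(41-214) and 0.45 ± 0.25 (adjusted p = 0.798) in Runx1KO against control, with 95% intervals of -0.43 to 0.68 and -0.11 to 1.00.

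Kit, the stem cell factor receptor and the gate antigen measured here, was moderately higher in both altered groups on its brighter probe set. It was at 11.83, 11.81 and 11.51 on the RUNX1(41-214) arrays, 11.74, 11.40 and 11.77 on the Runx1KO arrays and 11.32, 11.11 and 11.01 on the control arrays, and control arrays overlapped with neither group. The log2 fold change of 0.57 ± 0.14 in RUNX1(41-214) against control passed (adjusted p = 0.0415), while 0.49 ± 0.14 in Runx1KO against control did not (adjusted p = 0.246). Between RUNX1(41-214) and Runx1KO the difference was 0.08 ± 0.14 (adjusted p = 0.906). The dimmer probe set had larger errors, and averaged 8.59 ± 0.36 in RUNX1(41-214), 8.06 ± 0.81 in Runx1KO and 8.30 ± 0.06 in control cells (SD, n = 3 each). On it the RUNX1(41-214) arrays lay above the control arrays by a narrow margin (lowest 8.38 against highest 8.35), while the Runx1KO arrays overlapped them. Without quantile normalization the RUNX1(41-214) arrays also overlapped control, with replicates 1 and 2 at 8.34 and 8.29 and control arrays at 8.26 to 8.38. Its log2 fold changes against control were 0.29 ± 0.35 in RUNX1(41-214) and -0.24 ± 0.35, of opposite sign to the brighter set, in Runx1KO, and neither passed. The mean of both sets, 0.43 in RUNX1(41-214), did not pass (adjusted p = 0.381). The call was also lost without RUNX1(41-214) replicate 1 or 2, Runx1KO replicate 1 or control replicate 2 or 3 (adjusted p = 0.0635 to 0.187).

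**Figure D3:**
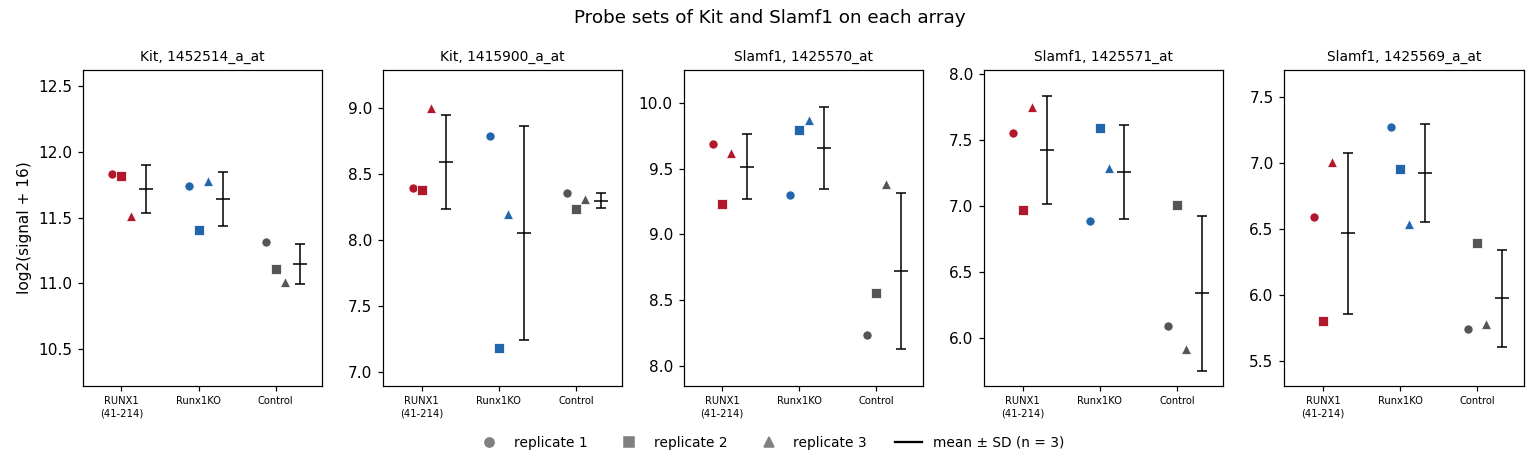
The 2 probe sets of Kit and the 3 of Slamf1 on the 9 arrays as log2(signal + 16) after quantile normalization (vertical axis, 2.4 log2 units in every panel), by group, with the mean ± SD (n = 3). The brighter Kit set separates the control arrays (11.01 to 11.32) from all others, and on the dimmer set only the Runx1KO arrays overlap them, with replicate 2 lowest at 7.18.

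The order of the group means therefore differed between markers. For Tek, Cd48 and the brighter set of Kit it was RUNX1(41-214), Runx1KO and then control. In these RUNX1(41-214) and Runx1KO did not differ past the threshold, and for Kit neither did Runx1KO and control. On the dimmer set of Kit, Runx1KO was below control. For Slamf1 and Robo4 it was Runx1KO, RUNX1(41-214) and control, with no neighbours separated. For Flt3 and Thy1 it was control, Runx1KO and RUNX1(41-214), with neither neighbouring pair separated, and for Procr it was Runx1KO and control, which were not separated, and then RUNX1(41-214). For Cd34 it was RUNX1(41-214), Runx1KO and control, with no pair separated.

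For each marker past the F test, the genes with the most similar profile over the 9 arrays were sought among 6195 genes brighter than the median gene, by the root mean square difference of log2 values centred on each gene's mean. Procr was nearest to Fads1, a fatty acid desaturase (0.131), and Adat2, a tRNA deaminase subunit (0.165). Tek was nearest to the syntaxin Stx3 (0.169) and the myosin Myo7a (0.206), and Cd48 to the activin receptor Acvr1b (0.220) and Tmem184b (0.238). These are descriptions of these arrays, which share both the groups and the arrays themselves.

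Other surface markers of stem and progenitor cells changed in both directions in RUNX1(41-214) cells. Of 25 measured, 4 rose and 3 fell in RUNX1(41-214) against control, and 2 rose and 0 fell in Runx1KO against control (10 with an unadjusted p under 0.05). Over all genes 4.28% and 0.347% were called in these comparisons, shares that belong beside the counts of every list below. A single call in a list is given for the gene and not as a result about the list. Median log2 fold changes were 0.24 and 0.27, beside 0.018 and -0.0040 over all genes. Itga2b, the integrin chain CD41 of early progenitors and megakaryocytes, rose by 2.02 ± 0.15 in RUNX1(41-214) and 1.29 ± 0.15 in Runx1KO, and was 0.74 ± 0.15 higher in RUNX1(41-214) than in Runx1KO (adjusted p = 0.0372). Jam3, an adhesion molecule of stem cells, rose by 2.00 ± 0.21 in RUNX1(41-214) and 1.59 ± 0.21 in Runx1KO. Selp, the adhesion receptor P-selectin, rose by 2.09 ± 0.18 and Itga6, an integrin chain that binds laminin, by 0.72 ± 0.12 in RUNX1(41-214). In Runx1KO against control Selp was at 0.56 ± 0.18 and Itga6 at 0.43 ± 0.12, and neither passed (adjusted p = 0.366 and 0.272). The 3 that fell in RUNX1(41-214), named after their values were seen, were the adhesion molecule Alcam (-1.51 ± 0.30), the tetraspanin Cd82 (-1.04 ± 0.26) and the Slit receptor Robo1 (-0.61 ± 0.14, a dim gene).

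Ligands, partners and relatives of the markers formed another list, of which 4 of 18 rose in RUNX1(41-214) and 1 of 18 in Runx1KO, and 0 fell. Podxl, a sialomucin related to CD34, rose by 2.06 ± 0.20 in RUNX1(41-214) and 1.45 ± 0.20 in Runx1KO (adjusted p = 0.000121 and 0.00795). Of the genes that act with EPCR, thrombomodulin (Thbd), which presents thrombin to protein C, rose by 1.69 ± 0.35 and the thrombin receptor F2r by 0.69 ± 0.16 in RUNX1(41-214). Others in the same list, named after their values were seen, did not pass there: the protein S gene Pros1 was at -0.48 ± 0.28, the prothrombin gene F2 at -0.31 ± 0.24 and the protein C gene Proc at 0.15 ± 0.20 (adjusted p = 0.483, 0.611 and 0.811). Slit2, a ligand of Roundabout receptors and a dim gene here, rose by 1.37 ± 0.31 in RUNX1(41-214), from a mean of 5.62 in control cells to 6.99. In Runx1KO against control Thbd was at 0.27 ± 0.35, F2r at 0.61 ± 0.16 and Slit2 at 0.99 ± 0.31, and these did not pass (adjusted p = 0.939, 0.211 and 0.310).

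In the SLAM and CD2 family, 1 of 10 measured relatives passed in RUNX1(41-214) against control: Cd84, a homophilic SLAM receptor, rose by 1.04 ± 0.22 (adjusted p = 0.0189). In Runx1KO limma called 0 of 10 (4 at an unadjusted p under 0.05) and Cd84 was at 0.52 ± 0.22 (adjusted p = 0.625). Among 11 measured relatives of Ly6a and other GPI-anchored proteins, limma called 0 in both comparisons against control (1 at an unadjusted p under 0.05 in RUNX1(41-214) and 0 in Runx1KO). Of these, Ly6d, an early lymphoid marker, was at -0.92 ± 0.41 in RUNX1(41-214) (adjusted p = 0.301) and the complement inhibitor Cd59a at 0.23 ± 0.22 (adjusted p = 0.716).

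Of 29 genes that signal downstream of KIT and FLT3, 1 rose in RUNX1(41-214), a share near the 4.28% of all genes called there. It was Stat5a, a transcription factor activated by both receptors, which rose by 0.91 ± 0.17 (adjusted p = 0.0111). In Runx1KO limma called 0 of 29 (5 at an unadjusted p under 0.05), and Stat5a was at 0.31 ± 0.17 (adjusted p = 0.799). Of 13 other receptor kinases, the fibroblast growth factor receptor Fgfr1, a dim gene here, fell by 1.21 ± 0.27 in RUNX1(41-214) (adjusted p = 0.0268), and limma called 0 of 13 in Runx1KO (3 at an unadjusted p under 0.05).

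**Figure D4:**
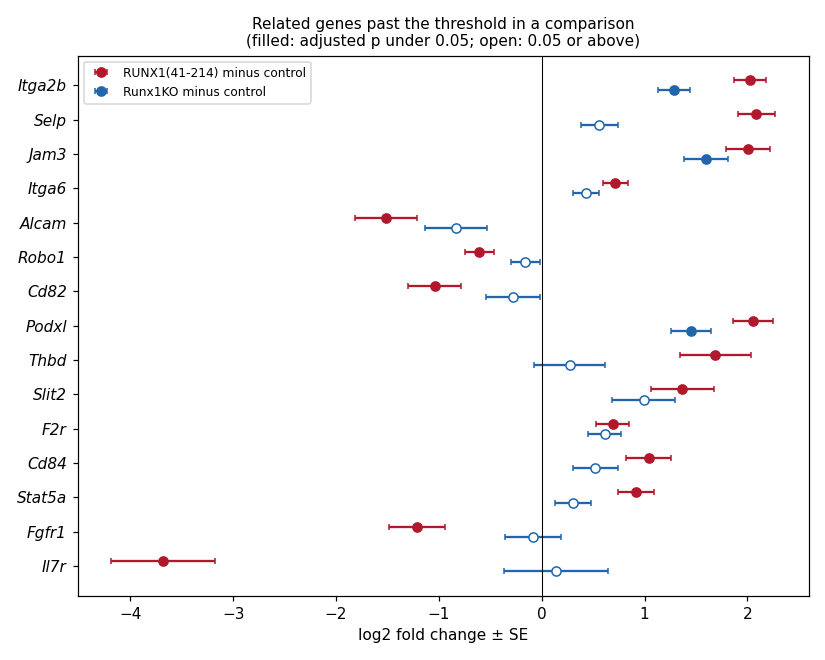
Log2 fold change ± SE (horizontal axis) in RUNX1(41-214) minus control (red) and Runx1KO minus control (blue) of all 15 genes of the related lists that passed in at least 1 comparison, with filled points for an adjusted p under 0.05. In RUNX1(41-214) cells 10 of the 15 were higher and 5 (Alcam, Cd82, Robo1, Fgfr1 and Il7r) were lower, and in Runx1KO cells Itga2b, Jam3 and Podxl passed.

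RNA of the antigens that the gate excludes was also followed, though RNA cannot check a gate on surface protein. Of 10 lineage and IL7Ra genes measured, 1 differed against control in RUNX1(41-214), and limma called 0 in Runx1KO (0 also at an unadjusted p under 0.05). The 1 was Il7r, the interleukin 7 receptor chain, whose surface protein was gated out. It was at 5.82, 5.36 and 5.90 on the RUNX1(41-214) arrays, 10.17, 9.70 and 8.68 on the Runx1KO arrays and 10.45, 8.19 and 9.49 on the control arrays. Array means over the 10 genes were 5.14 to 5.26 in RUNX1(41-214), 5.33 to 5.96 in Runx1KO and 5.32 to 5.64 in control cells.

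Genes of other cell types moved alongside the markers, and their part in the marker results was not tested. The lists share genes, so their counts are not independent. Itga2b, Selp and F2r, named above, are also in the megakaryocyte and platelet list, and Il7r is also in the early lymphoid list. Gzmb, which fell in RUNX1(41-214), is counted in both the mast cell and the T and NK cell lists. Of 14 megakaryocyte and platelet genes, 8 rose in RUNX1(41-214) and 3 in Runx1KO, with array means of 9.49 to 9.88 in RUNX1(41-214), 9.14 on each Runx1KO array and 8.26 to 8.43 in control cells. Of 13 early lymphoid genes, 7 fell and 1 rose in RUNX1(41-214) and 1 fell in Runx1KO, with array means of 7.65 to 7.93 in RUNX1(41-214), 8.63 to 9.61 in Runx1KO and 8.85 to 9.59 in control cells. Of 13 T and NK cell genes, 5 fell in RUNX1(41-214) and 1 in Runx1KO, with array means of 5.30 to 5.41 in RUNX1(41-214), 5.37 to 5.71 in Runx1KO and 5.75 to 6.13 in control cells. Of 10 mast cell and basophil genes, 3 rose and 1 fell in RUNX1(41-214) and 1 rose and 1 fell in Runx1KO, with array means of 6.63 to 6.83 in RUNX1(41-214), 5.90 to 6.65 in Runx1KO and 5.68 to 6.47 in control cells. In RUNX1(41-214) against control, 2 of 10 erythroid genes rose and 1 fell, 2 of 17 granulocyte and monocyte genes rose and 3 fell, and 1 of 9 B cell genes fell. In Runx1KO limma called 0 in each of these 3 lists, with 0, 4 and 1 at an unadjusted p under 0.05.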

How the data were processed

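For each of 9 arrays the authors deposited linear intensity values of 22690 probe sets, from amplified and biotin-labelled RNA, per the labels' protocols. How probes were summarised and scaled is not stated in the labels. The 64 control probe sets were set aside, and the rest were converted to log2(signal + 16), which understates changes of dim genes, and quantile normalized. Each of 12393 genes was represented by its brightest probe set, since 20380 probe sets carried 1 symbol, 691 several and 1555 none (20351 matched a RefSeq gene). No filter on low signal was applied.

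The model held the 3 group means and used every array (limma 3.58.1 under R 4.3.3; moderated two-sided tests with a variance trend), with 6 residual degrees of freedom and a median standard error of 0.20. The number of arrays limits the precision. Tested on simulated data with 200 of 12393 genes changed, the fit recovered 59.7% of 2-fold and 97.0% of 4-fold changes for RUNX1(41-214) against control and 53.7% and 92.4% for Runx1KO against control. The markers and the lists of related and cell type genes were chosen with earlier results of these data known. Named related genes are, per list, up to 4 with the smallest p among those past the threshold, or 2 where none passed, and the 2 genes nearest in profile to a marker past the F test. Alcam, Cd82, Robo1, Pros1, F2, Proc, Tie1, Cdh5 and Gzmb were named outside this rule, which covers no cell type list. Alternatives covered the offset, normalization, probe set choice, dim genes, variance trend, array weights, a minimum fold, the 3′ to 5′ ratio, a replicate block and leaving out arrays.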

Additional observations from a re-analysis of the deposited data

How the results depend on the processing

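Of 9 markers, 2 passed in Runx1KO against control, 5 in RUNX1(41-214) against control, 1 in RUNX1(41-214) against Runx1KO and 3 in the F test. With single arrays left out these counts were 0 to 1, 3 to 5, 0 to 1 and 3 to 4. With the 3′ to 5′ Gapdh ratio as a covariate they were 1, 3 and 0 in the 3 contrasts, with a minimum fold of 1.2 they were 0, 2 and 0, and with only the 6 arrays compared the first 2 were 0 and 3. With array weights they were 1 in Runx1KO, 2 in RUNX1(41-214) against Runx1KO and 5 in the F test. With every probe set as a feature they were 1 and 3 against control, and without a variance trend 0 in Runx1KO. Without Runx1KO replicate 3 and control replicate 2, a setting chosen after seeing the data, they were 0 and 3 against control. At these zeros by limma, omissions included, 1 to 5 markers had an unadjusted p under 0.05. Calls over all genes moved too. In Runx1KO against control they were 43 in the main fit, 31 with the covariate, 18 with the minimum fold and 9 with only the 6 arrays. With single arrays left out they were 14 to 51. In RUNX1(41-214) against control they were 531, 394, 294 and 443 in the same 4 settings. With array weights they were 33, 766 and 371 in the 3 contrasts. Same-numbered arrays deviated together with a correlation over 0.1 in 3 of 9 pairs, and 6 of 9 arrays correlated best with one of their own number. The mean correlation was 0.072 for same-numbered pairs and -0.036 for the other pairs. Whether the numbers pair the samples is thus not settled. With a replicate block 1 marker passed in Runx1KO, Cd48, with Tek at an adjusted p of 0.0746. In RUNX1(41-214) against control 4 passed, with Thy1 lost at an adjusted p of 0.0643, and the counts over all genes were 48, 539 and 171, against 43, 531 and 168.

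Values near 0 changed sign, none past the threshold: Cd34 in Runx1KO was at -0.036 to 0.13 in omissions and -0.0071 without both doubted arrays, Procr in Runx1KO at -0.13 to 0.17 and -0.042 with array weights, Robo4 in RUNX1(41-214) at -0.087 to 0.27, and Kit in RUNX1(41-214) against Runx1KO at -0.037 to 0.19. The cause was not tested. Without dim genes Thy1 gave no value. The number of arrays limits small differences.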
